A study of Mus musculus with 6 samples.

Results

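The genes described here build the routes by which proteins enter mitochondria and the machinery that joins, divides, shapes and maintains these organelles. They were taken by a naming rule that used no values, but the rule was chosen with earlier results of these data known. It took every probe set that the array annotation assigned to 1 symbol starting with Timm or Tomm. It also took those assigned to 1 of a fixed set of genes for mitochondrial fusion, fission, cristae, mitochondrial DNA and outer membrane channels. This gave 75 of the 21646 probe sets tested, for 38 of 11429 genes. Phb and Tomm6 had only probe sets that list a second gene, 4 in all, and were not analysed here.

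RNA of immature mouse oocytes was compared with that of mature ones. Each stage had 3 samples of 300 oocytes, deposited as biological replicates and put on 1 array each, and the number of arrays limits the precision. Germinal vesicle (GV) oocytes were fully grown immature oocytes with an intact nucleus, from females aged 22 to 24 days primed with 5 IU of eCG, a follicle-stimulating gonadotropin, for 44 to 46 h. They were handled in medium with 5 µM milrinone, which inhibits the oocyte's phosphodiesterase and so holds meiotic arrest. Metaphase II (MII) oocytes had a first polar body and were recovered from the oviduct 14 h after 5 IU of hCG, which triggers ovulation, in females of the same age primed with eCG; hyaluronidase freed them from cumulus cells, and the labels give the same collection medium. The labels give no strain, genotype or mutation for either stage. The number of animals behind a sample is not stated, and 10 ng of total RNA entered the labelling of each, so that a value is a share of the RNA pool; fewer cells of a type and less RNA per cell cannot be told apart.

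All values are log2 expression values as deposited, and a difference is MII minus GV. "Called" means a Benjamini-Hochberg adjusted p under 0.05 over all 21646 probe sets by limma; errors of differences are standard errors and those of means are SD (n = 3). A gene is given by its brightest probe set over all 6 arrays unless another is named, and array values are listed in the order of replicates 1, 2 and 3. Over all probe sets the median difference was -0.15, but the array medians lay between 6.10 and 6.12 at the GV stage and between 5.47 and 5.49 at the MII stage, so differences near 0 depend on how arrays are scaled to each other. Of 14 measured oocyte markers 14 lay above the array median in GV and 13 in MII oocytes. In MII oocytes 7 of these 14 were called lower and 2 higher (median difference -0.76). Their summed linear signal was 4.506e+04 to 4.949e+04 in GV and 3.32e+04 to 3.513e+04 in MII arrays. Of 7 measured granulosa and cumulus markers 2 lay above the array median at either stage. In MII oocytes 4 of these 7 were called lower and 0 higher (median difference -0.45). Their summed linear signal was 400.7 to 463.7 in GV and 230.6 to 304.3 in MII arrays. Markers of cumulus expansion, theca, oviduct epithelium and blood, 8 measured in all, lay below the array median at both stages and 0 of them were called. The part of other cells in the differences below was not tested.

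Most mitochondrial proteins are encoded in the nucleus, made in the cytosol and carried into the organelle. The TOM complex is the gate of the outer membrane; TIM23 passes proteins with a cleavable presequence into the matrix, where a motor pulls them in, TIM22 inserts carrier proteins into the inner membrane, and small TIM chaperones escort hydrophobic precursors across the space between. Mitofusins and OPA1 fuse the membranes, while DRP1 with its adaptors divides them. The mouse oocyte is rich in mitochondria, which are inherited through it by the embryo, and transcription is largely silent from the fully grown stage until after fertilization.

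More transcripts for import and dynamics fell than rose. Among the 38 genes 18 were lower and 2 higher in MII oocytes, and 18 were not called. The share that fell, 47.4%, stands beside 37.8% of all genes called lower, and the share that rose, 5.26%, beside 10.5% called higher. Falls of 4-fold or more were called for 8 genes, 21.1% against 9.84% of all genes; these were Timm17a, Timm10b, Timm44, Vdac3, Timm13, Tomm20, Tomm7 and Timm17b. The median difference over the 38 genes was -0.43, beside -0.20 over all genes. Counted by probe set, 41 of 75 were lower (54.7%, against 34.1% of all probe sets) and 6 higher (8.0%, against 10.9%). The values of the 3 MII arrays lay below all 3 GV arrays for 44 probe sets (58.7%, against 39.4% of all) and above them for 8 (10.7%, against 14.6%).

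A core of 14 falls was called in each of the 13 to 15 other settings tried per gene: Tomm20, Tomm7, Tomm40, Timm17a, Timm17b, Timm44, Timm10b, Timm13, Timm8a1, Timm10, Timmdc1, Phb2, Mfn2 and Vdac3. The other 4 falls, of Fis1, Samm50, Mff and Polg, were not called with array medians made equal. Neither of the 2 rises, of Immt and Tomm70a, held with hybridization controls or poly-A controls made equal. The calls of the other genes moved with scaling, as did those of all probe sets: of the 18 genes not called, 16 were higher once array medians were equal (12016 of all 21646 probe sets were) and 16 lower once poly-A controls were (18380 of all). Opa1, for one, turned from 0.73 under the former scaling to -0.76 under the latter. For 9 of the 18 genes that fell the MII mean lay below the median of every MII array; the deposited table gives no detection call or background level, so whether these transcripts were still detected at the MII stage was not tested.

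In the TOM complex 3 of 7 genes fell (42.9%, against 37.8% of all genes) and 1 was called higher (14.3%, against 10.5%). Shares in this and the other small groups below were not tested. Tomm20 encodes a receptor that recognises presequences. It stood at 7.74, 8.06 and 8.08 in the GV arrays and at 5.35, 5.18 and 5.18 in the MII arrays, a difference of -2.72 ± 0.15 (limma adjusted p = 2.4e-07). All GV values exceeded all MII values, and the same held for its 3 other probe sets, which were called lower at -2.29, -1.84 and -0.94. Tomm7, a small subunit that modulates the complex, ran from 7.001 to 7.734 in the GV arrays and from 4.77 to 5.44 in the MII arrays, with GV replicate 2 and MII replicate 2 the highest of their stages. Its difference of -2.31 ± 0.24 (limma adjusted p = 2e-05) was joined by falls of both other probe sets, at -1.81 and -1.55. Tomm40 forms the channel of the gate. Its values were 6.23, 5.99 and 5.34 at the GV stage and 4.74, 4.53 and 4.66 at the MII stage, a difference of -1.21 ± 0.22 (limma adjusted p = 0.0011), with a wider spread among the GV arrays than among the MII arrays.

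Of the other 4 genes of this group, 3 were not called and 1 was called higher by the brightest probe set. Tomm22, a central receptor, was at 8.41 ± 0.26 and 8.76 ± 0.14 by its brightest probe set and was not called (0.35, 95% interval -0.01 to 0.72; 0.50 and called higher without GV replicate 3), but its second probe set, 1434420_x_at, fell from 7.81 ± 0.05 to 5.65 ± 0.13. Tomm34, a cytosolic co-chaperone that carries the family's name, differed by 0.01 (95% interval -0.33 to 0.35), and Tomm40l, a Tomm40 paralogue, by 0.07 (-0.31 to 0.46) at values near 3.5 that lie well below the array medians. Tomm70a encodes the receptor for carrier precursors. Its brightest probe set, 1417192_at, was at 4.50, 4.06 and 4.76 in GV and at 4.77, 5.13 and 5.40 in MII oocytes. This rise of 0.66 ± 0.21 (limma adjusted p = 0.030) separated the stages by 0.01, lay below the array medians and was lost without GV replicate 2 (0.47), MII replicate 2 (0.65) or MII replicate 3 (0.51). Another Tomm70a probe set, 1426676_s_at, fell from 5.36, 5.09 and 5.44 to 3.35, 3.48 and 3.51, and the remaining ones, at -0.29 and -0.09, were not called.

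The promoter of Tomm20 is shown because it holds a match to the binding motif of NRF1, a transcription factor known for its sites at genes of mitochondrial proteins, beside that of Opa1, a member with the same motif whose brightest probe set was not called. Both are the 250 bases before the transcription start in RefSeq (GRCm38.p6), 5′ to 3′ on the gene's strand, with the motif in capitals: GCGC, then any base, then TGCGC, searched on both strands. That of Tomm20 is chr8:126945922-126946171 (minus strand) and that of Opa1 is chr16:29579084-29579333 (plus strand).
Tomm20: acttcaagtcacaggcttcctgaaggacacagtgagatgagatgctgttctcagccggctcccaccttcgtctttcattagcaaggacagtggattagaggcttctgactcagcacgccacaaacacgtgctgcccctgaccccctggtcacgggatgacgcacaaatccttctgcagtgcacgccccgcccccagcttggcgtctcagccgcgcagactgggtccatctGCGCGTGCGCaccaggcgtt
Opa1: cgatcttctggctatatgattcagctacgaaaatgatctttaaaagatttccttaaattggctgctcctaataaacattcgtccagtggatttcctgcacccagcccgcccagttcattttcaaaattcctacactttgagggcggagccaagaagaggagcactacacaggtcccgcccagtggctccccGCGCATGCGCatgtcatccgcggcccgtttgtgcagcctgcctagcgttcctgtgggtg
The motif begins 20 bases before the start of Tomm20 and 59 bases before that of Opa1. RefSeq promoters, from 250 bases before to 50 after a start, were at hand for 33 of the 38 genes, 41 promoters in all, and 4 held the motif (9.76%, against 4.6% of 32851 promoters of all genes). The other matches, in Immt and Timm8b, lay after the start. Of the 4 genes, Tomm20 fell, Immt had probe sets called both ways, and Timm8b and the brightest probe set of Opa1 were not called.

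Of the 7 genes of the TIM23 complex and its motor 3 fell (42.9%, against 37.8% of all genes) and 0 rose (against 10.5%). Timm17a and Timm17b encode alternative forms of a channel subunit. Timm17a had the steepest fall of all 38 genes, from 9.63, 10.36 and 9.97 in GV arrays to 5.15, 5.25 and 5.09 in MII arrays (-4.82 ± 0.19, limma adjusted p = 3.7e-08). The stages were far apart, with more than 4 log2 units between the lowest GV and the highest MII array. Timm17b was at 7.97, 7.36 and 7.26 against 5.43, 5.39 and 5.45, a difference of -2.11 ± 0.19 (limma adjusted p = 7.6e-06), and its other probe set was at -1.38. Timm44 tethers the matrix motor to the channel. It fell from 9.38, 9.32 and 8.73 to 6.13, 6.41 and 5.93 (-2.98 ± 0.20, limma adjusted p = 1.1e-06), and both other probe sets were called lower at -2.79 and -1.75.

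Timm23, the channel protein itself, was not called. Its values were 12.56, 11.56 and 11.32 at the GV stage and 12.28, 12.39 and 11.96 at the MII stage. They lay toward the upper end of the arrays' range (13.3). The stages overlapped because of GV replicate 1. The difference of 0.40 ± 0.29 (95% interval -0.24 to 1.04) was not called, and without GV replicate 1 it was 0.77 and called higher. Timm21, which links the TOM and TIM23 complexes, differed by 0.00 ± 0.18 and Grpel1, the nucleotide exchange factor of the motor, by 0.14 ± 0.16, neither called. For Timm50, the receptor of TIM23, the brighter probe set, 1459830_at, was at -0.50 ± 0.19 and not called (limma adjusted p = 0.054; -0.69 and called lower without GV replicate 3), although its 3 MII values lay below the 3 GV values. The other, 1455456_a_at, fell by 3.00, from 6.69, 6.99 and 6.79 to 3.59, 4.19 and 3.69.

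Within an array the scale cancels in the ratio of 2 genes, so the change of such a ratio between stages does not depend on an additive scaling. From GV to MII the log2 ratio of Timm23 to Timm17a changed by 5.22 ± 0.56 and that of Timm23 to Timm44 by 3.38 ± 0.28. These and the ratios given below, 9 in all, pair a gene that was called lower with one that was not. They were chosen with their values known, so they are descriptions. An exact permutation test gave p = 0.1 for each, the lowest value it can reach with 3 arrays per stage, so it cannot decide.

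The 9 genes of the TIM22 complex and the small TIM chaperones included 4 falls (44.4%, against 37.8% of all genes) and 0 rises (against 10.5%). Timm10b, a small TIM bound to the TIM22 complex, was at 8.08, 8.62 and 8.30 in GV oocytes and at 4.20, 3.92 and 4.64 in MII oocytes. The difference was -4.08 ± 0.21 (limma adjusted p = 1.7e-07), and the 3 other probe sets were called lower at -4.85, -3.11 and -1.86. Timm13, which works in a pair with the TIMM8 proteins, fell from 6.62, 7.29 and 6.88 to 3.78, 4.22 and 4.42 (-2.79 ± 0.21, limma adjusted p = 2.6e-06). Timm8a1 was at 7.86, 7.90 and 7.47 against 6.06, 6.08 and 5.71 (-1.79 ± 0.17, limma adjusted p = 1.2e-05); a dim second probe set, below 4 on every array, was at -0.20 and not called. Timm10, which assembles with TIMM9 into the main carrier chaperone, fell from 6.68 ± 0.10 to 5.25 ± 0.07 (-1.43 ± 0.13). No MII array reached a GV array in these 4 genes.

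The remaining members of this group were not called. Timm9, the partner of Timm10, was at 9.58 ± 0.20 and 9.93 ± 0.06, and its 3 MII values lay above its 3 GV values (0.35, 95% interval 0.02 to 0.68, limma adjusted p = 0.078; 0.46 and called higher without GV replicate 1). Timm8b differed by 0.24 (95% interval -0.13 to 0.60) and Timm8a2, whose only probe set is of a type that can match several transcripts, by -0.43 (-0.82 to -0.05; -0.57 and called lower without MII replicate 2). Timm22, the insertion channel, differed by 0.04 (-0.31 to 0.39), with values below the array medians at both stages. Timm29, which joins TIM22 to the outer gate, differed by -0.09 (-0.46 to 0.28), while its other probe set, 1452175_at, was called lower at -0.78. The log2 ratio of Timm9 to Timm10 changed by 1.78 ± 0.16, that of Timm8b to Timm8a1 by 2.03 ± 0.22 and that of Timm8b to Timm13 by 3.03 ± 0.22. Timmdc1, named for its resemblance to these proteins and known as an assembly factor of respiratory complex I, fell from 6.10, 6.07 and 5.76 to 5.06, 4.68 and 4.92 (-1.09 ± 0.16, limma adjusted p = 0.00027).

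Of 3 genes that build and shape the membranes, 2 fell (66.7%, against 37.8% of all genes). By its brightest probe set 1 was called higher (33.3%, against 10.5%). Samm50, the core of the machinery that inserts barrel proteins into the outer membrane, was at 9.26, 9.24 and 9.09 in GV and at 8.31, 8.46 and 8.08 in MII oocytes. Its difference was -0.92 ± 0.15 (limma adjusted p = 0.00053), with -0.81 in the second probe set, and it was not called with array medians made equal (-0.29). Phb2, a prohibitin that forms a ring scaffold in the inner membrane, gave 9.42, 9.81 and 9.60 against 8.31, 8.68 and 8.70. The difference of -1.05 ± 0.17 (limma adjusted p = 0.00048) stood beside -1.48 and -1.36 in the other probe sets, both called lower, and in all 3 the stages were separate.

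Immt, which encodes mitofilin, the organiser of cristae junctions, was measured by 3 probe sets that were called in opposite directions. The brightest over all arrays, 1429533_at, rose from 6.99, 6.71 and 7.39 to 8.34, 7.78 and 7.79 (0.94 ± 0.21, limma adjusted p = 0.0047). By contrast 1433470_a_at, the brightest in GV oocytes, fell from 8.66, 8.46 and 8.22 to 5.70, 6.10 and 5.94 (-2.53 ± 0.17, limma adjusted p = 8.6e-07), and 1429534_a_at from 7.88, 7.66 and 7.12 to 6.70, 6.69 and 6.59 (-0.90 ± 0.19). No array of one stage entered the range of the other in any of the 3. The mean over the probe sets differed by -0.83 and was called lower.

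Among 6 genes of fusion and fission 3 fell (50.0%, against 37.8% of all genes) and 0 rose (against 10.5%). Mfn2, a mitofusin that also tethers mitochondria to the endoplasmic reticulum, fell from 7.73, 7.45 and 7.45 to 5.70, 5.76 and 5.76 (-1.81 ± 0.14, limma adjusted p = 2.5e-06). Its paralogue Mfn1 was at 9.26 ± 0.04 and 9.25 ± 0.09, a difference of -0.02 with a 95% interval of -0.31 to 0.27. The log2 ratio of Mfn1 to Mfn2 changed by 1.79 ± 0.09. Other Mfn1 probe sets were at -0.41 (not called, limma adjusted p = 0.062; -0.56 and called lower without MII replicate 3) and, at values from 4.11 to 5.39 with overlapping stages, at 0.65 (called higher, limma adjusted p = 0.042). That call was kept only without GV replicate 1 and lost without any other single array (0.47 to 0.72). Opa1, the inner membrane fusion GTPase, stood at 9.63 ± 0.08 and 9.74 ± 0.10, a difference of 0.11 (95% interval -0.19 to 0.41), and its ratio to Mfn2 changed by 1.92 ± 0.15. A dimmer Opa1 probe set, 1449214_a_at, fell from 5.88 ± 0.16 to 4.34 ± 0.61, and another, at 0.16 ± 0.42, varied too widely between arrays of a stage to be called.

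Of the 3 fission genes 2 fell and 1 was not called. Fis1, an outer membrane adaptor, fell from 7.07, 6.87 and 6.68 to 5.75, 5.92 and 6.21 (-0.91 ± 0.17, limma adjusted p = 0.0014), but was not called with array medians made equal (-0.29) or after quantile normalization (-0.24). Mff, the main receptor of DRP1, was at 11.60, 11.54 and 11.49 against 10.94, 11.19 and 11.07 by its brightest probe set, 1456736_x_at (-0.48 ± 0.13, limma adjusted p = 0.015; -0.42 and not called without MII replicate 1). Its probe set 1451572_a_at went the other way, from 9.59, 9.48 and 9.52 to 10.10, 9.92 and 9.91 (0.45 ± 0.13, limma adjusted p = 0.019; not called without GV replicate 2 at 0.42 or MII replicate 1 at 0.39), and the third was at -0.25 and not called. Dnm1l encodes DRP1, the GTPase that constricts the organelle. Its brightest probe set, 1428086_at, was at 10.12, 10.15 and 10.15 in GV and 10.39, 10.16 and 10.31 in MII arrays, a difference of 0.15 (95% interval -0.15 to 0.44) that was not called. A second, 1428087_at, fell from 9.28, 9.38 and 9.53 to 8.97, 8.63 and 8.46 (-0.71 ± 0.16), while the dim 1452638_s_at rose from 4.05, 3.10 and 3.72 to 5.21, 4.70 and 4.54 (1.20 ± 0.25), the largest rise among the 75 probe sets.

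Probe sets of a gene did not always give the same answer. Of the 20 genes with more than 1 probe set, 7 had each of them called lower (Phb2, Samm50, Timm10b, Timm17b, Timm44, Tomm20 and Tomm7) and in 7 others some were called lower and the rest not called. Vdac1 and Mfn1 had 1 called higher and the rest not called. Dnm1l, Immt, Mff and Tomm70a had probe sets called in both directions, 4 of 20, beside 10.8% of all genes with several probe sets. Both genes counted as higher, Immt and Tomm70a, were among these 4. Which transcripts the probe sets of a gene detect was not analysed here.

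The 2 factors of mitochondrial DNA showed small differences in their brightest probe sets. Polg, the catalytic subunit of the DNA polymerase, was at 6.01, 6.34 and 6.15 in GV and at 5.77, 5.54 and 5.91 in MII oocytes (-0.42 ± 0.15, limma adjusted p = 0.049). This call was the closest to the threshold and was lost without GV replicate 2 (-0.33) or 3 (-0.43) and without MII replicate 1 (-0.43) or 2 (-0.32), and the second probe set was at -0.20 and not called. Tfam, which packages mitochondrial DNA and acts in its transcription, was at 6.42, 6.50 and 6.24 against 6.37, 6.32 and 6.68. The stages overlapped, with a difference of 0.07 (95% interval -0.27 to 0.41). Its dimmer probe set, 1448224_at, fell from 4.02, 5.14 and 4.25 to 3.67, 2.86 and 3.18 (-1.23 ± 0.29, limma adjusted p = 0.0064).

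The voltage-dependent anion channels, through which metabolites cross the outer membrane, parted into 1 fall (33.3%, against 37.8% of all genes) and 2 genes not called. Vdac3 dropped from 11.33, 11.14 and 11.06 to 8.42, 8.16 and 8.04 (-2.97 ± 0.15, limma adjusted p = 1.7e-07). Vdac1 was at 9.51, 9.26 and 8.92 in GV and at 9.66, 9.996 and 9.41 in MII arrays, which overlapped. Its difference of 0.46 ± 0.20 was not called (95% interval 0.02 to 0.90, limma adjusted p = 0.086), but it was 0.60 and called higher without GV replicate 1 and without MII replicate 3. Its 4 other probe sets were at 0.49 (called higher, limma adjusted p = 0.027; 0.42 to 0.50 and not called without GV replicate 2 or 3 or MII replicate 1, and 0.39 without MII replicate 2), 0.40, 0.34 and 0.19. Vdac2 was at 9.19, 9.21 and 9.18 against 9.96, 9.32 and 9.16, a difference of 0.28 (95% interval -0.16 to 0.73) in which MII replicate 1 stood above the other arrays. The log2 ratio of Vdac1 to Vdac3 changed by 3.43 ± 0.21 and that of Vdac2 to Vdac3 by 3.25 ± 0.15. With poly-A controls made equal the differences of Vdac1 and Vdac2 were -0.41 and -0.59, the latter called lower.

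Other genes of the same pathways, which the naming rule did not take, are given by lists, to be read beside the 37.8% of all genes called lower and 10.5% called higher. In further import genes, 18 measured, 10 fell and 3 rose, with a median of -0.62. The steepest falls were those of Mtx2 (-3.46 ± 0.15), a partner of SAMM50, and Gfer (-2.59 ± 0.17), the oxidase of the intermembrane space import route. Pmpcb, a subunit of the peptidase that removes presequences, rose by 1.27 ± 0.13, with a second probe set called lower, and Romo1 by 0.71 ± 0.18. In the cristae organising list 5 of 8 genes fell and 0 rose (median -1.47), led by Dnajc11 at -4.35 ± 0.19 and Chchd10 at -2.70 ± 0.17. A second probe set of Dnajc11 was not called.

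Among 21 further genes of mitochondrial dynamics, quality control and transport 11 fell and 3 rose (median -0.40). The ubiquitin ligase gene Mul1 was at -4.32 ± 0.15 and Mtfr1, known for a role in fission, at -2.04 ± 0.22, both called lower. Mtfr1l was at 0.94 ± 0.15 and Stoml2, which binds prohibitins, at 0.84 ± 0.23, both called higher, but 2 other probe sets of Mtfr1l were called lower. Of 18 further genes for mitochondrial DNA upkeep and transcription 12 fell and 3 rose (median -1.28). Ssbp1, the single-stranded DNA binding protein of the nucleoid, was at -3.58 ± 0.26, with 2 of its 4 probe sets called lower and 0 higher. The protease gene Lonp1 was at -2.94 ± 0.16. Called higher were the transcription factor gene Tfb2m (0.80 ± 0.19) and the helicase-nuclease gene Dna2 (0.41 ± 0.14). These genes were called by limma at adjusted p from 2.6e-08 for Mul1 to 0.034 for Dna2.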

How the data were processed

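The deposited values are log2 expression values of 6 short-oligonucleotide arrays, 1 per sample; the submitters' processing notes name RMA and affy, with no version or settings, while the rule that kept these probe sets and the background correction are not stated by any label or header. Each array carries one and the same set of 7077 distinct values, yet the array medians differ between the stages. Whether the scaling between arrays, which is not stated, kept or removed a true difference in total signal cannot be told. The 56 control features among the 21702 probe sets were left out of tests; 19078 of the rest had 1 gene symbol, 550 several and 2018 none. Symbols follow the platform annotation; promoter sequences are from RefSeq (GRCm38.p6).

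Differences between the stages came from limma 3.58.1 under R 4.3.3 (a linear model of stage alone with moderated variances, no intensity filter) over all 21646 probe sets, tested first on simulated data. Each gene is named by its brightest member probe set; every member is named, with array values for the 3 largest called rises and falls per role, for all members of roles of up to 3 genes and for genes with opposite calls, and in each further list up to 2 called genes per direction. The members and lists were chosen with earlier results of these data known. Alternatives were 4 other scalings (array medians, quantiles, 18 hybridization or 21 poly-A controls made equal), no variance moderation, a filter on dim probe sets, each array left out, a replicate block and other choices of probe set. Only samples 2 and 3 of a stage are numbered in their titles, and deviations from the stage means correlated at 0.029 and 0.027 between same-numbered arrays, so the numbers were not taken as pairs. A planned comparison of paralogous protein sequences was not made.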

Additional observations from a re-analysis of the deposited data

How the results depend on the processing

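Relative to their number, counts of rises changed more with the setting than counts of falls. The 41 lower probe sets of 75 became 66 with poly-A controls equal, and numbered 31 to 42 under the other settings that kept all 75. They were 28 of the 50 brighter probe sets and 28 of the 54 left without the types _s_at and _x_at. Of all 21646 probe sets 7376 were lower as deposited, 18380 with poly-A controls equal and 4306 to 7179 under those other settings. Of all 10823 brighter probe sets 4438 were lower. The 6 higher probe sets became 30 with array medians equal, 24 after quantile normalization, 0 with either set of controls equal, 2 with no moderation, 3 among brighter probe sets only, and 2 to 9 with an array left out. Of all 21646 probe sets 2358 were higher as deposited, 12016 with array medians equal and 7538 after quantile normalization. With hybridization controls equal 104 of all were higher, with poly-A controls equal 65 and with no moderation 1279. With an array left out 1547 to 2127 of all were higher, and 1758 of the 10823 brighter ones were. By gene, the 18 falls became 34 with poly-A controls equal and 14 to 22 otherwise; the 2 rises became 18 with array medians equal, 16 after quantile normalization, 0 with either set of controls equal, with no moderation or with the mean over probe sets, 1 among brighter probe sets only, 4 with the replicate block and 1 to 5 with an array left out. The median gene difference of -0.43 turned to 0.20 with array medians equal and 0.24 after quantile normalization, and was -0.83 with hybridization controls equal, -1.30 with poly-A controls equal and -0.71 with the mean over probe sets. The 4 scalings shifted the median of all probe sets by 0.62, 0.34, -0.40 and -0.87, respectively. Scaling by array medians or controls by construction moves every gene alike. Quantile normalization moved genes by unlike amounts, such as Timm23 from 0.40 to 0.57 and Fis1 from -0.91 to -0.24. The replicate block on samples 2 and 3 left 39 falls and 8 rises among probe sets; it uses 4 arrays and shares only a number between stages, and arrays did not correlate best with their own number.

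The sign turned for these genes, among them both called rises, Immt and Tomm70a. With array medians equal: Mff 0.14, Mfn1 0.61, Polg 0.20, Timm29 0.53, Timm50 0.13, Timm8a2 0.19. After quantile normalization: Mfn1 0.42, Polg 0.24, Timm29 0.53, Timm50 0.17, Timm8a2 0.23. With hybridization controls equal: Dnm1l -0.26, Grpel1 -0.26, Opa1 -0.30, Tfam -0.34, Timm21 -0.40, Timm22 -0.36, Timm23 -0.0081, Timm8b -0.17, Timm9 -0.055, Tomm22 -0.051, Tomm34 -0.40, Tomm40l -0.33, Vdac2 -0.12. With poly-A controls equal: Dnm1l -0.72, Grpel1 -0.73, Opa1 -0.76, Tfam -0.80, Timm21 -0.87, Timm22 -0.83, Timm23 -0.48, Timm8b -0.64, Timm9 -0.52, Tomm22 -0.52, Tomm34 -0.86, Tomm40l -0.80, Tomm70a -0.21, Vdac1 -0.41, Vdac2 -0.59. With the replicate block: Grpel1 -0.020, Mfn1 0.025, Timm21 -0.033, Timm29 0.12. With the mean over probe sets: Immt -0.83, Mfn1 0.074, Opa1 -0.43, Tfam -0.58, Tomm22 -0.90, Tomm70a -0.39. Without probe sets of the types _s_at and _x_at, Mff was at 0.45. With an array left out, signs turned within these ranges: Mfn1 -0.066 to 0.010, Timm29 -0.21 to 0.048, Timm21 -0.11 to 0.19, Tomm34 -0.087 to 0.12, Tfam -0.044 to 0.14, Timm22 -0.058 to 0.14, Tomm40l -0.017 to 0.23.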
